A study of Rattus norvegicus with 12 samples.

Results

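The arrays of cells held at 300 mOsm/kg make up 6 of the 12 arrays of the series, 3 taken 24 h and 3 taken 48 h after a step down from 640 mOsm/kg, chosen by the osmolality in their titles. The comparison asks how the transcriptome of inner medullary collecting duct (IMCD) cells moved between the first and the second day after the step. Primary cultures from kidneys of male Sprague-Dawley (SD) rats aged 7 weeks were first grown for 4 days at 640 mOsm/kg, in every group. The 300 mOsm/kg groups then went to reduced osmolality for 24 or 48 h, and the 640 mOsm/kg groups, 3 arrays at each time, stayed in the hyperosmolar medium. A short code in the sample descriptions reads 340 for the 24 h arrays and 300 for the 48 h arrays of the step-down groups, and 600 for the 48 h arrays kept at 640. The titles and treatments of these samples say 300 and 640. Whether the osmolality itself differed between the times cannot be told apart here from time.

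Principal cells of the inner medullary collecting duct take up water from the tubule through aquaporins placed in the membrane under vasopressin, and urea through urea transporters. In a concentrated medium they hold sorbitol, inositol, taurine and other organic osmolytes, made or carried in by genes under the transcription factor Nfat5. When the medium is diluted, cells swell, release ions and osmolytes, and lower the genes that had kept osmolytes high. Cultures of dispersed medulla can also hold interstitial fibroblasts, pericytes and macrophages, which divide or spread with days in culture. No array was taken before the step, and the culture is a day older at the later time, so the same interval at 640 mOsm/kg is given beside the main results. In such bulk samples a smaller share of a cell type and less RNA per cell of that type cannot be told apart.

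Values are log2 intensities from 1 Affymetrix Rat Gene 1.0 ST array per sample. Over the 14506 genes tested, the array medians were 6.89, 7.58 and 7.46 at 24 h and 6.94, 6.88 and 6.82 at 48 h of 300 mOsm/kg (replicates 1, 2 and 3), so 24 h replicate 1 stood with the 48 h arrays. The mean of the medians was lower at 48 h by value (difference -0.43, two-sided exact permutation p = 0.2, and -0.41 with p = 0.1 over all probe sets, where the times did not overlap). With 3 arrays against 3 the smallest possible p is 0.1, so this test could not pass and decides nothing about the scale. A shift of all genes between the times cannot be told apart from an array effect here. Each array was set to a common median of 7.09, and all levels below are on that scale. Aqp2, the defining water channel of principal cells, had levels of 7.42, 6.91 and 6.95 at 24 h and 7.54, 6.72 and 7.66 at 48 h, and of 9.85 to 11.87 on the 6 arrays at 640 mOsm/kg. No detection calls were used here, and levels of different genes are not compared. Nothing in the labels ties the 3 arrays of a group to different animals or dishes. The p-values below therefore cover the spread between these samples alone, which may be technical. They also treat the 12 arrays as independent. Deviations from the group means correlated at 0.58 to 0.84 between certain arrays of the 2 osmolalities, and the main fit does not allow for this.

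Between 24 and 48 h at 300 mOsm/kg, limma called 37 of the 14506 genes at a Benjamini-Hochberg adjusted p under 0.05 (0.255%). Of these, 24 rose (0.165%) and 13 fell (0.0896%), 18 and 10 of them by at least 2-fold. For all 37 the arrays of the 2 times did not overlap, so non-overlap given for a called gene below is no separate support. Non-overlap held for 7.29% of the 14506 genes with 48 h higher and for 4.85% with 48 h lower. The rises included the receptor Il1rl1 and the calpain Capn6, which had the largest changes. Among them too were secreted serpins, the protease trap A2m, matrix genes and contractile genes. The 13 falls were those of 4 antiviral interferon-stimulated genes, 6 genes of DNA replication and cell division, the reductases Ptgr1 and Nqo1 and the phosphatase Dusp6. At 640 mOsm/kg the same interval had 20 calls, all of them rises (0.138%), with 424 genes lower and 530 higher at an unadjusted p under 0.05. At 300, 669 of the 14506 genes were higher and 437 lower at that threshold, the background for such counts of list members below. All 24 genes that rose at 300 were also higher by value at 48 h at 640, Acta1 by only 0.003 and Stmn4 by 0.12 on the log2 scale. Of the 13 that fell, 9 were also lower there. The changes at the 2 osmolalities correlated at 0.67 (Pearson) over all genes, so such likeness was not particular to the called genes. Over all genes, 8506 of the 14506 were higher at 48 h at 300, the background for the counts of list members higher or lower below. Called at both osmolalities were 9 genes, 24.3% of the 37 and 45.0% of the 20.

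The arrays did not weigh equally in this list. Called genes numbered 38 without 24 h replicate 1, the array of low median, with 18 rises and 20 falls, and 24 of the 37 remained. They numbered 17 without 24 h replicate 2 and 7 without 24 h replicate 3. Without 48 h replicates 1, 2 and 3 they numbered 9, 10 and 15. The call held in all 6 of these fits for 7 genes, A2m, Acta1, Capn6, Dcn, Ptgr1, Serpine2 and Serpinf1, and in none of them for 8, Actg2, Cdc6, Clec4a3, Fgg, Gpc3, Ifitm1, Pdgfrb and Rsad2. With the replicate number as a block, 92 genes were called in the fit of all 12 arrays, where replicates 1 and 3 did not match across osmolality, and 405 in a fit of the 6 arrays at 300 (230 rises, 1.59%, and 175 falls, 1.21%), all 37 among them. The blocked fit of 6 arrays was chosen after seeing the data and has 2 residual degrees of freedom. It leans on the spread pooled over genes, with an SE of 0.17 for both Capn6 and Il1rl1, against 0.22 and 0.29 in the main fit. Its counts of list members below are no independent support for the main calls.

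**Figure D1:**
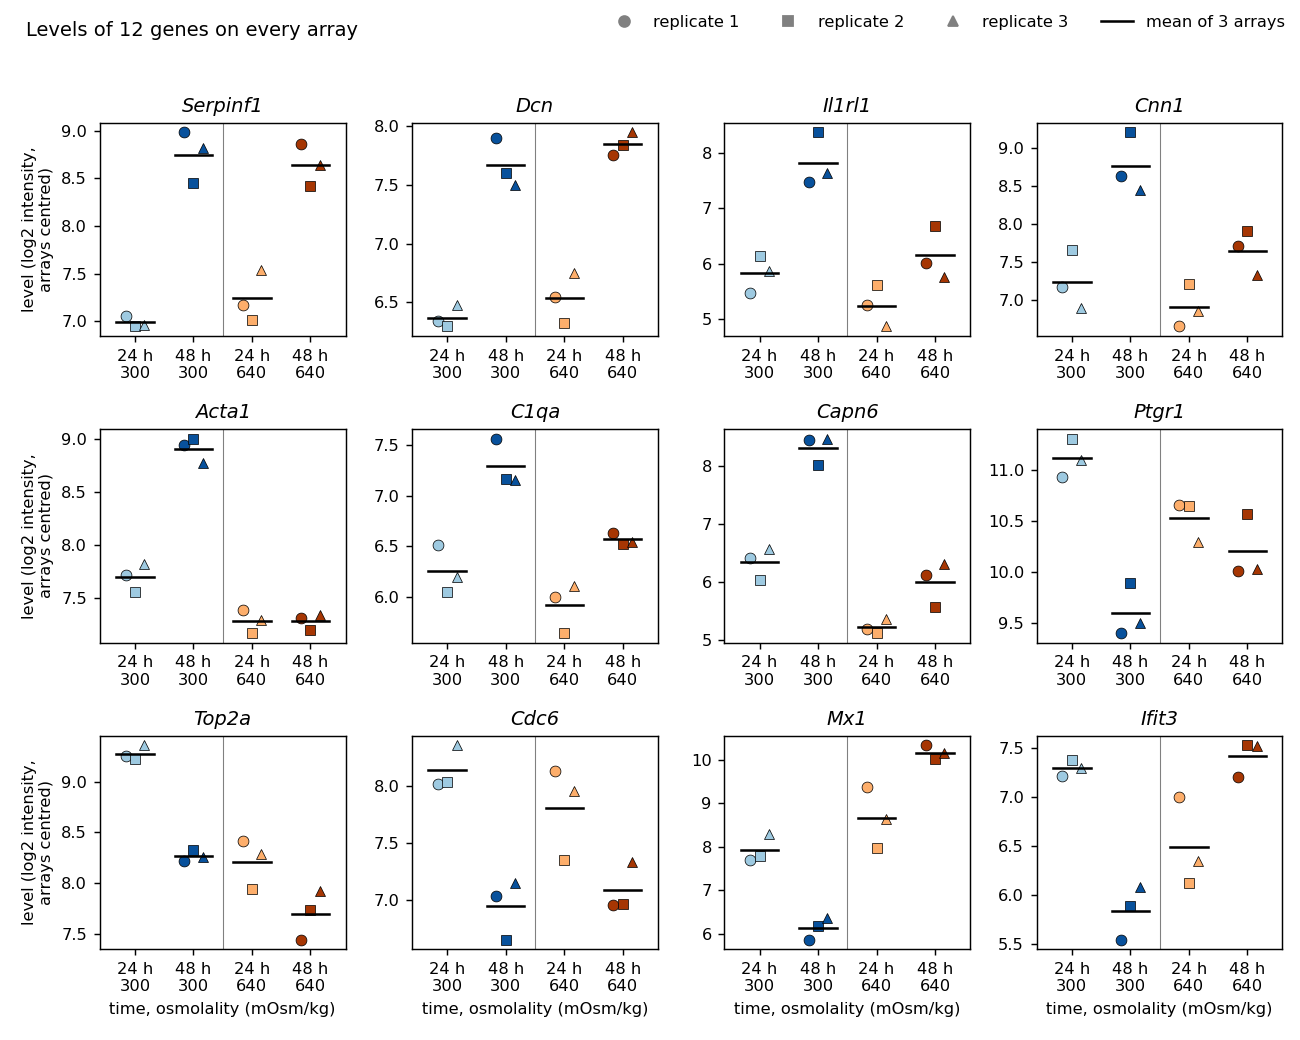
Levels of 12 genes (vertical axis, log2 intensity with arrays centred) at 24 and 48 h of 300 (blue) and 640 mOsm/kg (orange). Each symbol is 1 array, its shape the replicate number, and the line is the mean of 3; Acta1 separates the times at 300 only, and Mx1 and Ifit3 move in opposite directions at the 2 osmolalities.

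Secreted serpins and the protease trap A2m were among the clearest rises. Serpinf1, a secreted serpin also called pigment epithelium-derived factor, had levels of 7.05, 6.94 and 6.96 at 24 h and 8.98, 8.45 and 8.81 at 48 h. Every 48 h array lay above every 24 h array, by 3.39-fold on average (log2 change 1.76 ± 0.19 SE, adjusted p = 0.00123). A2m, the broad protease trap alpha-2-macroglobulin, had levels of 6.29, 6.10 and 6.05 against 7.94, 7.62 and 7.34 (1.49 ± 0.17, adjusted p = 0.00182). Serpine2, which inhibits thrombin and plasminogen activators, had levels of 6.15, 5.98 and 5.63 against 7.78, 7.18 and 7.51 (1.57 ± 0.20, adjusted p = 0.0034). All 3 also rose at 640 mOsm/kg, by 1.4, 1.65 and 1.17 on the log2 scale, with adjusted p of 0.00474, 0.00151 and 0.0387. Serpine2 was the only call among 20 measured matrix proteases and inhibitors, of which 17 were higher at 48 h, with a median change of 0.14 (-0.29 on the deposited, uncentred values, where the median of all genes was -0.38). Fgg, the gamma chain of fibrinogen, rose by 0.87 ± 0.16 (adjusted p = 0.0336) beside A2m in a list of 15 complement and acute phase genes with no other call.

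Matrix and fibroblast genes rose together with them. Dcn, the collagen-binding proteoglycan decorin, had levels of 6.34, 6.29 and 6.48 at 24 h and 7.90, 7.6 and 7.5 at 48 h (log2 change 1.29 ± 0.17 SE, adjusted p = 0.0034). Postn, the matrix protein periostin, had levels of 4.97, 4.79 and 4.69 against 5.87, 6.15 and 5.93 (1.17 ± 0.17, adjusted p = 0.0105). Col1a1, a chain of type I collagen, had levels of 9.75, 9.66 and 9.37 against 11.06, 10.33 and 10.62 (1.07 ± 0.20, adjusted p = 0.0336). In each of these genes the 3 arrays of one time did not overlap those of the other. Pdgfrb, the platelet-derived growth factor receptor of pericytes and fibroblasts, rose by 0.91 ± 0.17 (adjusted p = 0.0336), and Cthrc1, a secreted protein of remodelling matrix, by 1.18 ± 0.20 (adjusted p = 0.0257). Vcan, the large proteoglycan versican, rose by 1.01, Gpc3, a membrane-anchored heparan sulfate proteoglycan, by 0.98 and Mamdc2, a protein with MAM domains, by 1.03 (adjusted p = 0.0193, 0.0336 and 0.0257). Those 3 lay outside the naming rule and were named after their values were seen.

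Of 20 measured extracellular matrix and fibroblast genes, 19 were higher at 48 h and 4 passed the test, all rises, with a median log2 change of 0.73 against 0.05 for all genes. For 13 of them the arrays did not overlap and the 48 h arrays were higher, which held for 7.29% of all genes. Col3a1 (1.24, adjusted p = 0.0735), Col1a2 (1.18, adjusted p = 0.296) and Thy1 (1.06, adjusted p = 0.246) did not pass. These 3, and other members given below to show what did not pass, were likewise named after their values were seen. With the replicate block in the 6 arrays, 12 of the 20 rose, against 1.59% of all genes. Without 24 h replicate 1, 3 rose. At 640 mOsm/kg 20 of 20 were higher at 48 h and 3 were called, with a median of 0.64.

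Markers of fibroblasts and interstitial cells share 10 genes with that list, so their count is not separate evidence. All 12 measured were higher at 48 h, 4 were called and the median change was 0.98 (0.78 at 640). Their mean level per array lay between 6.11 and 6.33 at 24 h and between 6.89 and 7.13 at 48 h. The transcription factors among them, Tcf21 and Meox1, changed by 0.25 and 0.12 and did not pass. Whether more fibroblasts or more matrix transcript per cell lay behind these values was not tested.

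**Figure D2:**
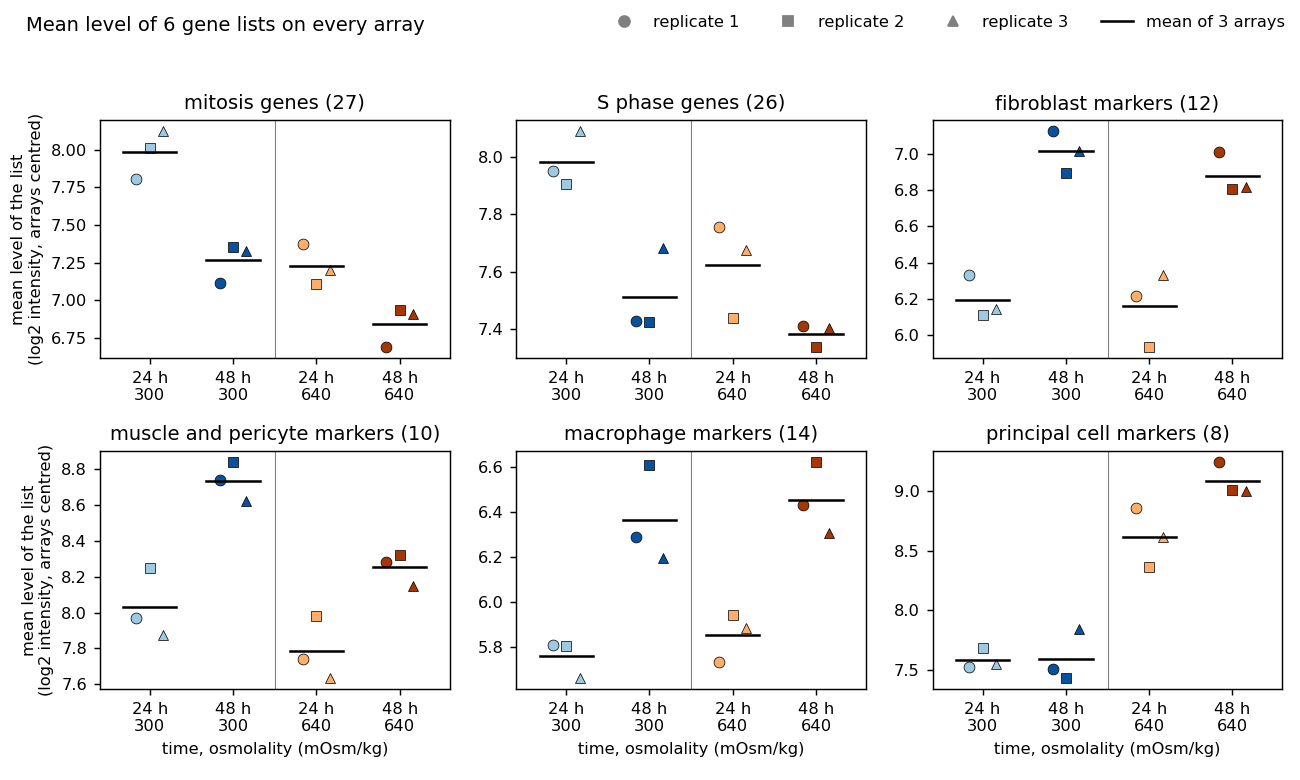
Mean level of 6 gene lists on each array (vertical axis, log2 intensity with arrays centred; number of members in brackets), by time and osmolality. Symbols mark the replicate and lines the mean of 3 arrays; at 300 the mitosis and S phase lists are lower and the fibroblast, muscle and macrophage markers higher on every 48 h array than on any 24 h array, while principal cell markers overlap.

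Contractile genes, 4 in number, rose at 300. Cnn1, the actin-binding calponin of smooth muscle, had levels of 7.17, 7.65 and 6.89 at 24 h and 8.63, 9.21 and 8.46 at 48 h (log2 change 1.53 ± 0.25 SE, adjusted p = 0.0193). Acta1, the alpha-actin of skeletal muscle that is also made by stressed or spread cells, had levels of 7.72, 7.56 and 7.82 against 8.95, 9.00 and 8.78 (1.21 ± 0.15, adjusted p = 0.00319). Actg2, the gamma-actin of smooth muscle, rose by 1.35 ± 0.23 (adjusted p = 0.0257), and Tpm2, a tropomyosin, by 1.16 ± 0.22 (adjusted p = 0.0435). The 2 times did not overlap in any of these genes. At 640 the changes of Cnn1, Actg2 and Tpm2 were 0.74, 0.70 and 0.73 and did not pass the test (adjusted p = 0.523, 0.514 and 0.429). Acta1 had a change of 0.00 at 640, where its levels were 7.38, 7.17 and 7.29 at 24 h and 7.31, 7.19 and 7.34 at 48 h. Its change at 300 exceeded that at 640 by 1.21 on the log2 scale (95% interval 0.75 to 1.66), a difference that did not pass the test over all genes (adjusted p = 0.0963).

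Of 25 measured genes of contractile actin and of the SRF and YAP transcription factors, 22 were higher at 48 h and those 4 were called, with a median change of 0.32 (-0.11 on the deposited values, where all genes had -0.38). At 640, 19 of the 25 were higher, with a median of 0.22. The growth-factor-like matrix proteins Ccn1 (0.54, adjusted p = 0.56) and Ccn2 (0.21, adjusted p = 0.903), much-used readouts of YAP, did not pass. Among 10 markers of smooth muscle and pericytes 9 were higher, Cnn1 was called and the median was 0.69 (0.49 at 640, where 9 of 10 were also higher). Tagln (0.98, adjusted p = 0.0638), Des (1.00, adjusted p = 0.132) and Acta2 (0.62, adjusted p = 0.291) did not pass. With the replicate block in the 6 arrays, 7 of these 10 markers and 8 of the 25 contractile genes rose, against 1.59% of all genes. The mean level of the 10 markers lay between 7.88 and 8.25 at 24 h and between 8.62 and 8.84 at 48 h, and the part of such cells in the rise was not tested.

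Among 14 macrophage markers 1 passed the test, C1qa. C1qa, a chain of the complement component C1q that macrophages secrete, had levels of 6.52, 6.05 and 6.20 at 24 h and 7.56, 7.16 and 7.16 at 48 h (log2 change 1.04 ± 0.18 SE, adjusted p = 0.0319). Clec4a3, a C-type lectin of myeloid cells named after its values were seen, rose by 0.97 ± 0.16 (adjusted p = 0.0237). Of the 14 markers 12 were higher at 48 h, with a median change of 0.63 (0.66 at 640). Lyz2 (1.11, adjusted p = 0.112), C1qc (1.00, adjusted p = 0.187) and Csf1r (0.59, adjusted p = 0.179) did not pass, and Cd68 was lower by value (-0.56, adjusted p = 0.811). With the replicate block in the 6 arrays 8 of the 14 rose, against 1.59% of all genes. The mean level of the markers lay between 5.66 and 5.81 at 24 h and between 6.20 and 6.61 at 48 h. Markers of lymphocytes (8 of 10 higher, median 0.06) and endothelium (9 of 11 higher, median 0.06) had 0 calls, with 2 and 0 members higher at an unadjusted p under 0.05 by limma. Of these lymphocyte members, Ptprc is also among the 14 macrophage markers.

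A further 6 genes rose that belong to none of these groups. Capn6, a calpain without protease activity that binds microtubules, had levels of 6.41, 6.03 and 6.57 at 24 h and 8.45, 8.02 and 8.47 at 48 h, a 3.94-fold rise (log2 change 1.98 ± 0.22 SE, adjusted p = 0.00123). Il1rl1, the receptor of interleukin 33, had levels of 5.48, 6.14 and 5.87 against 7.47, 8.38 and 7.63, a 3.99-fold rise (2.00 ± 0.29, adjusted p = 0.00857). Both were higher at 48 h at 640 as well, by 0.77 and 0.91, without passing the test there (adjusted p = 0.374 and 0.474). Trh, the precursor of thyrotropin-releasing hormone, rose by 1.06 ± 0.19 (adjusted p = 0.0336). Ifitm1, an interferon-induced membrane protein that restricts viral entry, rose by 1.03 ± 0.20 at 300 and by 1.56 at 640 (adjusted p = 0.0493 and 0.00386). Marchf11, a membrane-bound ubiquitin ligase, rose by 0.97 and Stmn4, a tubulin-binding stathmin, by 0.97 (adjusted p = 0.0234 and 0.0335). Ifitm1, Marchf11 and Stmn4 were named after their values were seen.

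Genes of mitosis and DNA replication were lower at 48 h nearly throughout. Of the members of the lists for these processes, Ccna2, Top2a and Cdc6 passed the test. Ccna2, the cyclin of S phase and mitotic entry, had levels of 8.01, 8.20 and 8.03 at 24 h and 7.10, 6.83 and 6.87 at 48 h (log2 change -1.14 ± 0.18 SE, adjusted p = 0.0193). Top2a, the topoisomerase that untangles chromosomes, had levels of 9.25, 9.22 and 9.36 against 8.21, 8.32 and 8.25 (-1.01 ± 0.17, adjusted p = 0.0257). Cdc6, which loads the replicative helicase at origins, had levels of 8.02, 8.04 and 8.36 against 7.03, 6.65 and 7.15 (-1.19 ± 0.22, adjusted p = 0.0336). In all 3 genes every 48 h array lay below every 24 h array, and non-overlap held for all 37 calls. A further 3 called genes act in cell division and are in neither list. Mastl, the Greatwall kinase of mitotic entry, fell by 1.19 on the log2 scale, Racgap1, a regulator of cytokinesis, by 0.97 and Ska1, a kinetochore protein, by 1.02 (adjusted p = 0.0257, 0.0336 and 0.0336).

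All 27 measured genes of the mitosis list were lower at 48 h, from -0.01 for Cdc25c to -1.14 for Ccna2, with a median of -0.73 (-0.74 after quantile normalization), and 2 passed the test. For 18 of the 27 the arrays did not overlap, which held in this direction for 4.85% of all genes. Spc25 (-1.10, adjusted p = 0.053), a kinetochore subunit, and Ttk (-1.11, adjusted p = 0.114), the checkpoint kinase, did not pass. With the replicate block in the 6 arrays 20 of the 27 fell, against 1.21% of all genes. Without 24 h replicate 1 the count was 5. Of 26 genes of S phase and DNA replication 24 were lower, Cdc6 alone was called and the median was -0.47. Mcm5, a helicase subunit, had -1.21 (adjusted p = 0.166). With the block 10 of the 26 fell (1.21% of all genes), and without 24 h replicate 1 none was called, although the median was then -0.46.

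At 640 mOsm/kg the mitosis list was also lower at 48 h, in 26 of 27 genes, with a median of -0.36 and 0 calls by limma (11 lower at an unadjusted p under 0.05). In 26 of the 27 the change at 300 was the more negative, and 0 of these differences passed the test (2 at an unadjusted p under 0.05). The mean level of the list was 7.81, 8.02 and 8.13 at 24 h of 300, above the 7.10 to 7.38 seen at 24 h of 640. By 48 h of 300 it was 7.12, 7.35 and 7.33, within the range of those 24 h arrays. The 48 h arrays at 640 were lowest, at 6.69, 6.93 and 6.91.

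**Figure D3:**
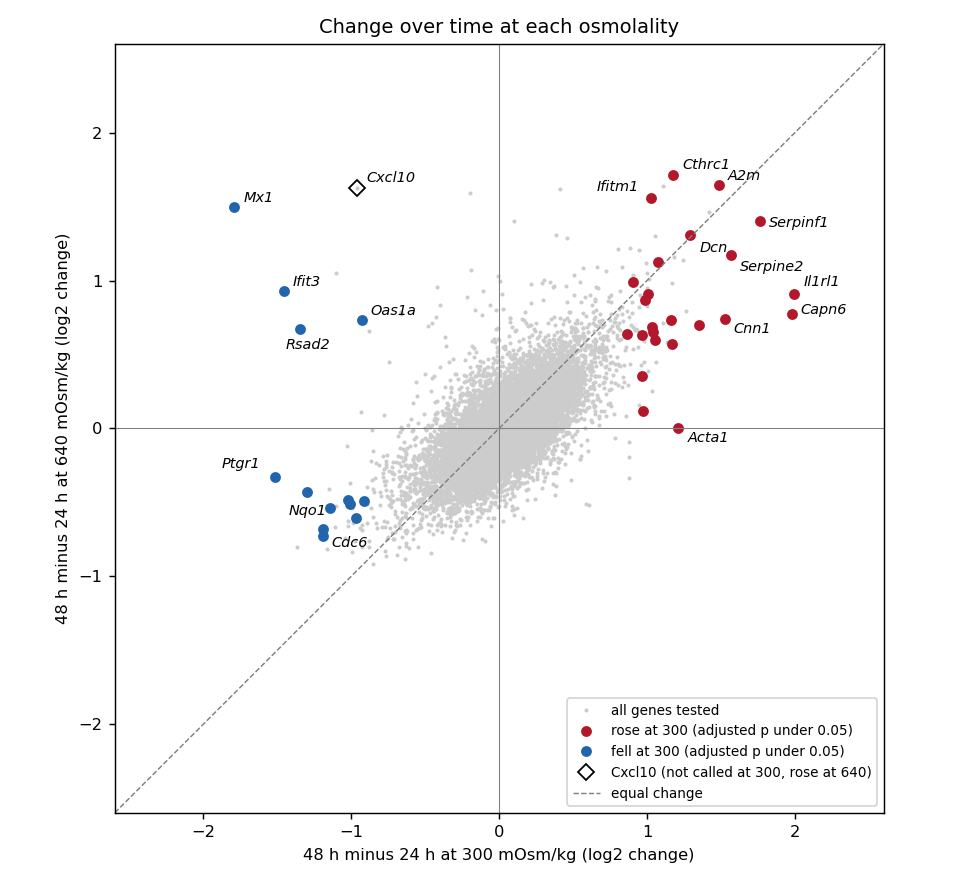
Log2 change from 24 to 48 h at 300 mOsm/kg (horizontal axis) and at 640 mOsm/kg (vertical axis) for the 14506 genes, with the 24 genes that rose at 300 in red, the 13 that fell in blue and equal change as a dashed line. The rises lie to the upper right, the falls of cell cycle genes to the lower left, and Mx1, Ifit3, Rsad2 and Oas1a to the upper left, lower at 300 and higher at 640; Cxcl10, a diamond, was not called at 300.

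The 4 genes whose change over time differed between the osmolalities were all antiviral interferon-stimulated genes: Mx1, Ifit3, Cxcl10 and Oas1a. Type I interferon induces such genes through a response element upstream of them. Their products block viral replication, sense viral RNA or, as with the chemokine Cxcl10, draw in lymphocytes. The upstream 250 bases of 4 of them that fell or differed are printed here because they let the response element be seen; they are RefSeq sequences of GRCr8, 5′ to 3′ on the strand of the gene, with each match to GAAANNGAAA on either strand in capitals. The stretches are chr1:241527076-241527325 (plus strand), chr6:48788121-48788370 (minus strand), chr12:41330216-41330465 (plus strand) and chr14:15988816-15989065 (plus strand).
Ifit3: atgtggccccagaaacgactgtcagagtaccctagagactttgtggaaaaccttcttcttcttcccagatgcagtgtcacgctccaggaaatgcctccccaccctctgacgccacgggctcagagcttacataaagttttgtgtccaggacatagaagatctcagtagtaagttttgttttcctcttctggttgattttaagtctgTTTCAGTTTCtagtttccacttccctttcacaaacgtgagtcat
Rsad2: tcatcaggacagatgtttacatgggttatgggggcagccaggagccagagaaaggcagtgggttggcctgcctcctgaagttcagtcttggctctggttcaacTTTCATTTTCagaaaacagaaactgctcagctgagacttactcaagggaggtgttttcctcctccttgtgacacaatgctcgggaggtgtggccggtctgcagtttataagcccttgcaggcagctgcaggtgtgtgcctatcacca
Oas1a: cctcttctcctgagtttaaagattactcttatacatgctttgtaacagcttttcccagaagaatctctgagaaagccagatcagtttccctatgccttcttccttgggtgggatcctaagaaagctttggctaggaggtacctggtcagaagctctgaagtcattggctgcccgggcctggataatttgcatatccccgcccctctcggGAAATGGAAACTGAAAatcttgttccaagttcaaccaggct
Cxcl10: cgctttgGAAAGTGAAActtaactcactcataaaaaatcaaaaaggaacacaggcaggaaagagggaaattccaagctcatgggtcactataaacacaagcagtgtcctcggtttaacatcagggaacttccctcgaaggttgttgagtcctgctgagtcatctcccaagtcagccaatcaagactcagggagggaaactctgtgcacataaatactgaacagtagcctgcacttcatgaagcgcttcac

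In Oas1a the capitals span positions -41 to -26 before the start of transcription and hold overlapping matches. Those of Ifit3 lie at -44 to -35, of Rsad2 at -147 to -138 and of Cxcl10 at -243 to -234. The motif was found in 1140 of 33469 upstream stretches of the same length in the table (3.41%) and in 14 of the 20 measured interferon-stimulated genes that the table holds (70.0%). Mx1 held no match in its 250 bases. A match is a description of the letters, and binding was not measured.

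Mx1, a GTPase that traps viral ribonucleoproteins, had levels of 7.69, 7.79 and 8.30 at 24 h of 300 and 5.87, 6.18 and 6.35 at 48 h. At 640 its levels were 9.38, 7.97 and 8.64 at 24 h and 10.32, 10.01 and 10.15 at 48 h. It thus fell 3.46-fold at 300 (log2 change -1.79 ± 0.28 SE, adjusted p = 0.019) and was higher by 1.5 at 640 (adjusted p = 0.0633). The arrays of the 2 times overlapped at neither osmolality. The 2 changes differed by -3.29 (95% interval -4.14 to -2.43, adjusted p = 0.00995).

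Ifit3, of the family that binds foreign RNA, had levels of 7.22, 7.38 and 7.29 against 5.55, 5.89 and 6.08 at 300, a fall of 1.46 on the log2 scale (adjusted p = 0.011). At 640 it had 7.00, 6.12 and 6.35 against 7.20, 7.52 and 7.52, and the difference of changes was -2.38 (95% interval -3.04 to -1.73, adjusted p = 0.0101). Oas1a, a synthetase of the RNase L activator, had levels of 6.15, 6.51 and 6.50 against 5.29, 5.69 and 5.39, a fall of 0.93 on the log2 scale (adjusted p = 0.0469). Its change at 640 was 0.73 (adjusted p = 0.248), with a difference of -1.66 (95% interval -2.20 to -1.12, adjusted p = 0.0354). In both genes the 48 h arrays lay below all 24 h arrays at 300 and above them at 640.

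Cxcl10 had levels of 6.34, 6.85 and 6.29 at 24 h and 5.15, 5.88 and 5.55 at 48 h of 300, which did not overlap and did not pass the test (-0.96, adjusted p = 0.228). It rose at 640, from 6.54, 6.88 and 6.27 to 8.11, 8.76 and 7.69 (1.63, adjusted p = 0.0362), and the changes differed by -2.59 (95% interval -3.41 to -1.77, adjusted p = 0.0333). Rsad2, the antiviral protein viperin, had levels of 7.45, 7.6 and 7.46 against 6.22, 5.90 and 6.34 at 300, a fall of 1.35 on the log2 scale (adjusted p = 0.0333). Its difference from 640 did not pass (-2.02, adjusted p = 0.0723). Over all genes 4 differences were called (0.0276%), those of Mx1, Ifit3, Cxcl10 and Oas1a, with 131 at an unadjusted p under 0.05.

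The sizes of these differences moved little between fits, and their calls were not stable. That of Mx1 ranged from -3.64 to -2.94 over the fits that left out 1 array. Over those 12 fits, Mx1 and Ifit3 were called in 11 of the 12 fits, Cxcl10 in 5 and Oas1a in 3. Without 24 h replicate 3 of 300 none was called, with 110 genes at an unadjusted p under 0.05, and the highest adjusted p of Mx1 and of Ifit3 over the 12 fits was 0.0554. Without both arrays of low median at 24 h (replicate 1 at 300 and replicate 3 at 640) none was called either, with 150 at an unadjusted p under 0.05, and Mx1 and Ifit3 had differences of -3.39 and -2.35 (adjusted p = 0.0794 for both).

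Of 30 measured genes of the list, 21 were lower and 9 higher at 48 h of 300, with a median change of -0.15. The 4 calls were the falls of Mx1, Ifit3, Rsad2 and Oas1a, and 9 of the 30 did not overlap and were lower, against 4.85% of all genes. Ifit1 (-1.10, adjusted p = 0.114) and Irf7 (-0.67, adjusted p = 0.264), the transcription factor that feeds interferon production, did not pass. The largest positive value in the list was that of the exonuclease Isg20 (0.54, adjusted p = 0.497). Ifitm1, an interferon-induced gene outside this list, rose at 300 (1.03, adjusted p = 0.0493) and at 640 (1.56, adjusted p = 0.00386). At 640, 26 of the 30 were higher at 48 h, with a median of 0.34, and Cxcl10 was called. The change was lower at 300 than at 640 in 25 of the 30. With the replicate block in the 6 arrays 7 fell at 300, against 1.21% of all genes. Without 24 h replicate 1 the count was 3. The mean level of the list on the 24 h arrays at 300 was 7.38, 7.33 and 7.46 and on the 48 h arrays 6.97, 7.16 and 7.12.

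**Figure D4:**
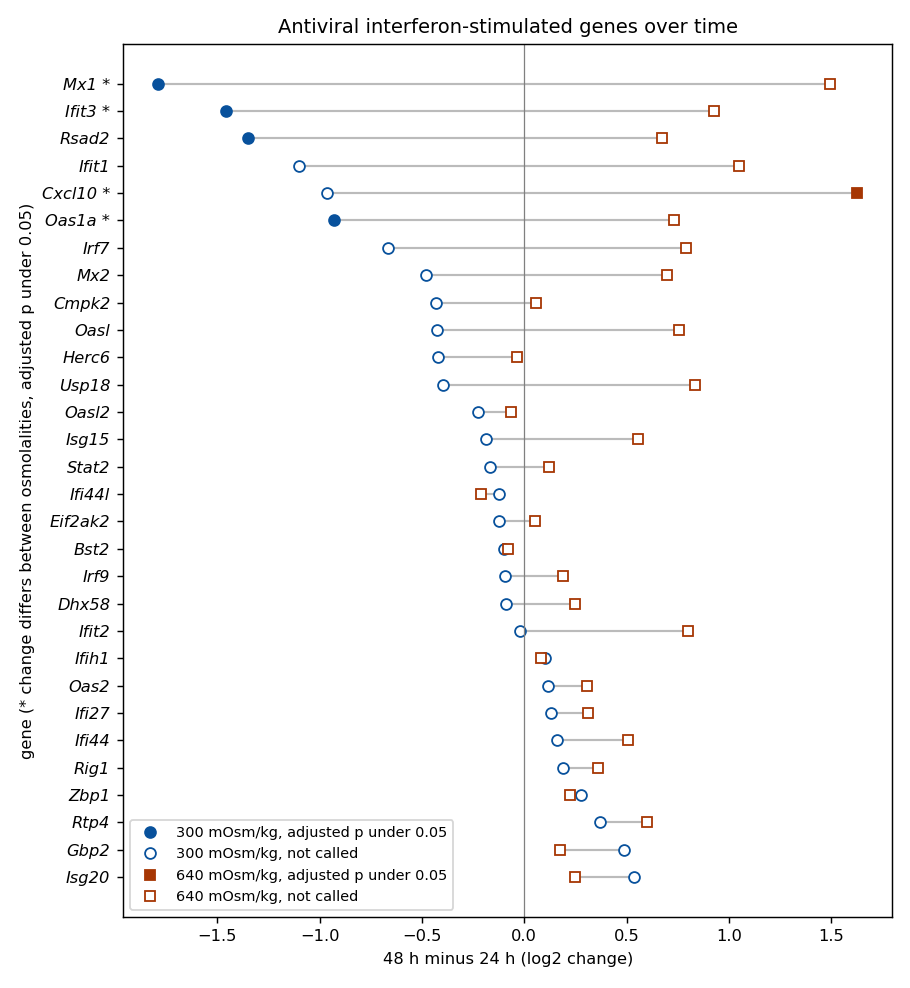
Log2 change from 24 to 48 h of the 30 measured antiviral interferon-stimulated genes (vertical axis), at 300 (blue circles) and 640 mOsm/kg (brown squares), filled where the adjusted p was under 0.05. The largest gaps, those of Mx1, Cxcl10 and Ifit3, come from genes lower at 300 and higher at 640, while genes such as Bst2 and Ifih1 have almost equal changes.

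The remaining falls were those of redox and signalling enzymes. Ptgr1, a reductase that inactivates prostaglandins and leukotriene B4, had levels of 10.94, 11.31 and 11.10 at 24 h and 9.40, 9.90 and 9.50 at 48 h, 2.86-fold lower at 48 h (-1.51 ± 0.20 on the log2 scale, adjusted p = 0.00395). Nqo1, a quinone reductase under the transcription factor Nrf2, had levels of 9.81, 9.45 and 10.12 against 8.34, 8.24 and 8.90 (-1.30 ± 0.23, adjusted p = 0.0336). Both were lower at 48 h at 640 by value only, at -0.33 and -0.43 (adjusted p = 0.891 and 0.854). Dusp6, the phosphatase that switches off ERK and is itself induced by ERK, fell by 0.92 on the log2 scale (adjusted p = 0.0469).

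Nqo1 was the only call among 20 Nrf2 targets, 10 higher and 10 lower with a median of 0.00 (0.21 at 640). Slc7a11, the cystine importer, had -0.80 (adjusted p = 0.134) and Hmox1, heme oxygenase, -0.19 (adjusted p = 0.839). With the replicate block in the 6 arrays 3 of the 20 fell, against 1.21% of all genes. Ptgr1 was the only call among 18 genes of prostaglandin synthesis and receptors, with a median of 0.03. Dusp6 was the only call among 24 immediate early genes, 15 of which were lower, with a median of -0.07.

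Transport and osmolyte genes of the collecting duct did not pass the test between 24 and 48 h at 300. Aqp2 changed by 0.21 (95% interval -0.49 to 0.92), Aqp3, the basolateral aquaporin, by -0.46 (-1.0 to 0.09) and Avpr2, the vasopressin receptor, by 0.48 (-0.01 to 0.96). At 640 these 3 changed by 0.98, 0.72 and 0.79, without passing the test (adjusted p = 0.526, 0.555 and 0.412). Slc14a2, the urea transporter of the inner medulla, had levels of 7.65, 8.90 and 8.78 at 24 h and 7.46, 7.85 and 7.77 at 48 h (-0.75, interval -1.42 to -0.07, adjusted p = 0.594), with 24 h replicate 1 among the 48 h arrays. Its change was 0.45 at 640, and the difference of changes did not pass (-1.20, adjusted p = 0.9999). Scnn1a and Scnn1g, subunits of the epithelial sodium channel, changed by -0.10 (-0.66 to 0.46) and 0.64 (0.31 to 0.98, adjusted p = 0.132). Sgk1, the kinase that keeps this channel at the membrane, changed by 0.12 (-0.23 to 0.48), and Fxyd2, a regulatory subunit of the Na,K-ATPase, by 0.57 (-0.07 to 1.2).

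Among osmolyte genes, Akr1b1, aldose reductase, the source of sorbitol, had levels of 11.99, 11.03 and 11.73 at 24 h and 12.23, 11.84 and 12.33 at 48 h (0.55, 95% interval 0.01 to 1.09, adjusted p = 0.647). Slc5a3, the inositol carrier, changed by 0.37 (-0.54 to 1.28), Slc6a6, the taurine carrier, by -0.23 (-0.70 to 0.25), Nfat5 by 0.10 (-0.33 to 0.53) and the osmotic chaperone Hspa4l by -0.10 (-0.52 to 0.31). These intervals reach 2-fold for Slc5a3 and Akr1b1 and stay below it for the other 3. Of 15 measured osmolyte genes 8 were higher and 7 lower, with a median of 0.00 and 0 calls by limma (1 higher and 1 lower at an unadjusted p under 0.05). Of 22 genes of water and urea transport 9 were higher and 13 lower, and of 17 genes of the sodium channel and mineralocorticoid pathway 8 were higher and 9 lower, with 0 calls in each and, at an unadjusted p under 0.05, 1 higher and 1 lower in the former and 1 higher in the latter.

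The 8 principal cell markers had a median change of 0.07 at 300 and 0.46 at 640, with 4 higher and 4 lower at 300 and 7 higher at 640. Their mean level was 7.53, 7.68 and 7.55 at 24 h and 7.51, 7.43 and 7.84 at 48 h of 300. Slc4a11, a transporter that carries protons, was listed among cell volume and ion transport genes. It had levels of 7.86, 8.62 and 8.26 against 7.19, 7.6 and 7.29 at 300. Its change was -0.88 (adjusted p = 0.15), against 0.66 at 640, and the difference of changes did not pass (-1.54, adjusted p = 0.26). There were 0 calls among the 18 genes of that list (2 lower at an unadjusted p under 0.05). Bmp6, a growth factor of the BMP family, had 6.54 on all 3 arrays at 24 h and 7.63, 7.13 and 7.49 at 48 h. Its change was 0.88 at 300 (adjusted p = 0.0549) and -0.19 at 640. The difference of its changes did not pass either (1.07, adjusted p = 0.708).

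The other lists had 0 calls by limma in this comparison, and up to 5 members each in a direction at an unadjusted p under 0.05. Over all 14506 genes, 669 were higher and 437 lower at that threshold. Nuclear genes of oxidative phosphorylation were higher in 28 of 30 cases with a median of 0.34 (0.21 after quantile normalization and -0.09 on the deposited values), and 5 were higher at an unadjusted p under 0.05. At 640, 25 of the 30 were higher, with a median of 0.22. Sdhb, a subunit of succinate dehydrogenase, changed by 0.43, and Ndufv2, a subunit of complex I, by 0.65 (adjusted p = 0.553 for both). Ndufv2 had levels of 9.95, 9.03 and 8.97 at 24 h, so that replicate 1 stood among the 48 h arrays, which ranged from 9.85 to 10.04. The mean level of this list was 10.41, 9.92 and 10.16 at 24 h and 10.41, 10.53 and 10.51 at 48 h.

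Apart from the Nrf2 targets and immediate early genes above, stress and metabolic lists had no call either. Among 19 heat shock chaperones 17 were higher with a median of 0.20 (-0.24 on the deposited values, 0.24 at 640), Hspb8 with 0.85 (adjusted p = 0.0639) and Hspa2 with 0.66 (adjusted p = 0.254). Calr and Canx, chaperones of the endoplasmic reticulum, changed by 0.47 and 0.37, and the cationic amino acid carrier Slc7a3, an Atf4 target, by -1.01 (adjusted p = 0.0871). Bax and Plk3, p53 targets, changed by 0.43 and 0.29, and the glycolytic enzymes Aldoa and Pgam1 by 0.38 and 0.37. Egln3 and P4ha2, hydroxylases of the hypoxia response, changed by -0.46 and 0.50. Cpt1a and Pdk4, which favour fatty acid oxidation, had -0.62 and -0.60, the lipogenic Elovl6 and Thrsp -0.75 and -0.64, and the sterol enzymes Tm7sf2 and Pmvk -0.58 and 0.45.

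Lists of growth, signalling and structure without a call had medians from -0.13 for clock genes to 0.30 for keratins, against 0.05 for all genes. Of the keratins 11 of 13 were higher. The ribosome biogenesis genes Polr1a and Gnl3 changed by -0.37 and -0.32, the clock genes Bmal1 and Per2 by 0.38 and -0.37, and Id3 and Inhba, of TGF-beta and BMP signalling, by 0.95 and 0.67. The growth factors Fgf2 and Ereg had 0.40 and -0.48, the Wnt and Notch genes Sfrp1 and Notch1 0.46 and -0.34, and the cytokines Ccl7 and Csf3 0.83 and -0.85. Krt18 and Krt19, keratins of simple epithelia, changed by 0.45 and 0.47, and the junction genes Crb3 and Dsc2 by 0.37 and -0.43. Spp1 and Clu, secreted by injured tubules, had 0.47 and 0.46, the lysosomal Ctsd and Gabarapl1 0.58 and 0.58, the cilium genes Ift27 and Ift57 0.49 and 0.46, and B2m and RT1-Db1, of antigen presentation, 0.54 and 0.64. Lhx1, a collecting duct transcription factor, changed by 0.42, and Impa2, an enzyme of inositol supply, by -0.41.

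Markers of other nephron and urinary cells gave 0 calls by limma as well. The 11 intercalated cell markers had a median of 0.02, with Atp6v0d2 at 0.90 (adjusted p = 0.588) and Foxi1 at 0.33. Slc12a1 and Cldn19, of the thick ascending limb, changed by -0.57 and -0.31, and Lrp2 and Slc34a1, of the proximal tubule, by -0.35 and 0.63. Upk1a and Tp63, of urothelium, changed by 0.16 and 0.45, and Plvap and Eng, of endothelium, by 0.32 and 0.34. Cd3g and Ptprc, of the lymphocyte list, changed by 0.39 and 0.59. Ptprc is also on the macrophage list, and Cd3g had low levels, from 2.83 to 3.53 at 300. At an unadjusted p under 0.05 these lists held 2 lymphocyte, 1 intercalated, 1 proximal and 1 urothelial marker that were higher and 1 of the thick limb that was lower.

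**Figure D5:**
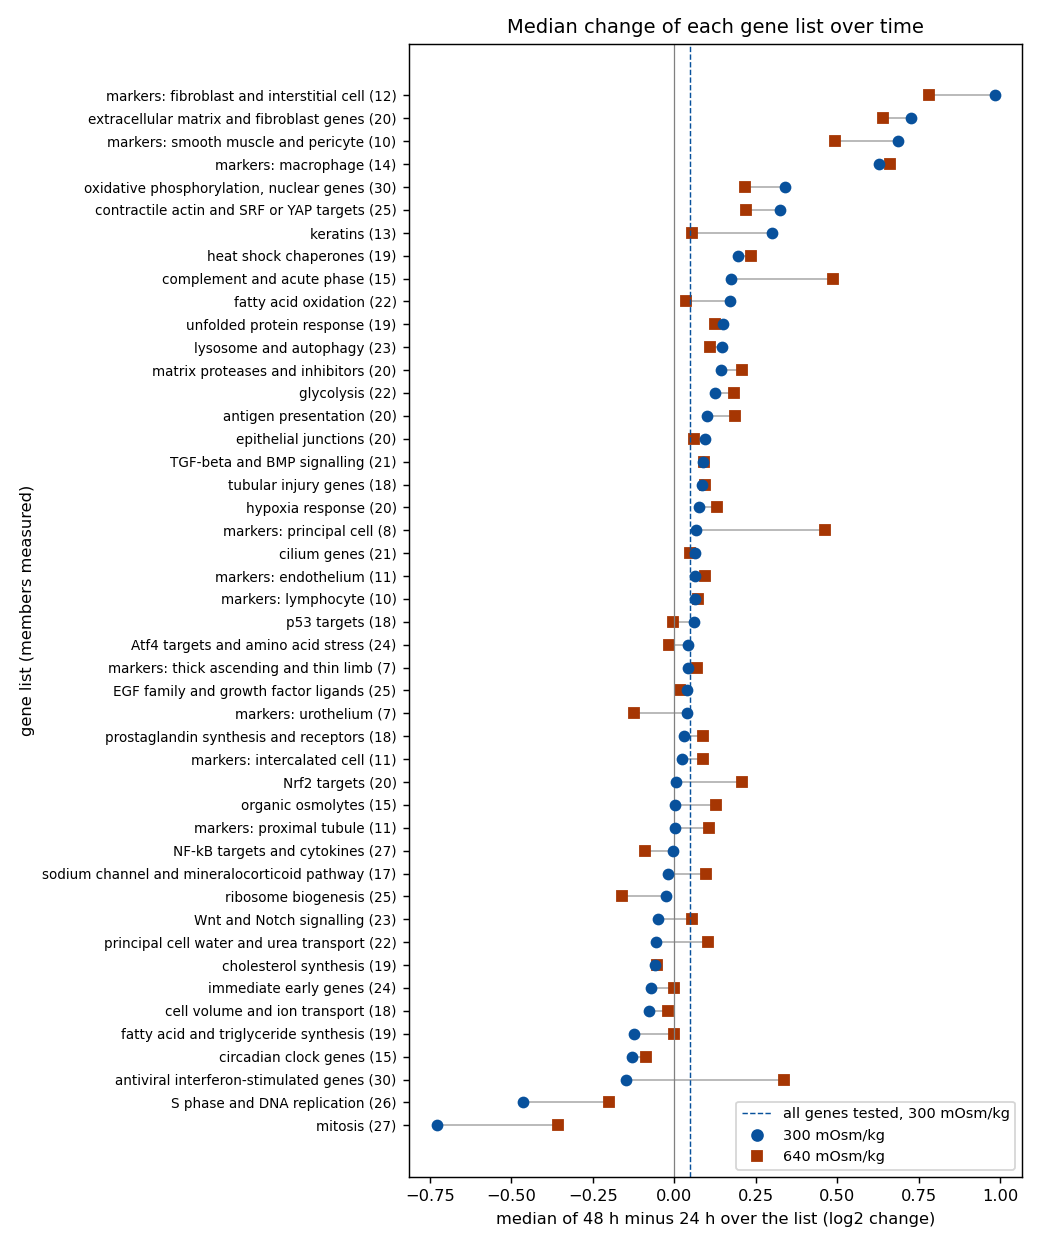
Median log2 change from 24 to 48 h over each gene list (number of measured members in brackets) at 300 (blue circles) and 640 mOsm/kg (brown squares), with the median of all genes at 300 as a dashed line. Fibroblast, matrix, muscle and macrophage lists lie to the right and S phase and mitosis to the left at both osmolalities, and the interferon list lies on opposite sides.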

How the data were processed

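Total RNA of 12 samples, 3 in each of 4 groups, was measured on 1 array each. Per the submitters' processing notes the authors deposited log2 expression values made by RMA with Affymetrix Power Tools, with versions and any batch of hybridisation not given in the sources used here. Of 27596 probe sets, 15310 had 1 gene symbol in the platform table, 323 had several and 11963 none. The probe set of highest mean stood for each of 14506 genes. RefSeq matched 15279 of the Entrez identifiers.

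Each array was centred on its median over these genes. Changes were tested with limma 3.58.1 in R 4.3.3 (lmFit, eBayes) fitting 4 group means to the 12 arrays (8 residual degrees of freedom), with Benjamini-Hochberg adjustment over all genes. Contrasts were 48 h minus 24 h at 300, the same at 640, and their difference. This fit takes the arrays as independent and does not allow for the correlations across osmolality given below. The fit was tested on simulated data with independent arrays, so that test does not cover the correlation between arrays seen here. A mean level of a list is the mean log2 value of its members on an array.

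The members, the gene lists and the comparison were chosen with earlier results of these data known. Named were 12 collecting duct and osmolyte genes, the 15 largest rises and all falls among called genes, up to 4 called members of each of 46 lists or, where none was called, the 2 of smallest p, and the genes of the difference from 640. The largest rises and the falls were taken only where the arrays of the 2 times did not overlap, which held for all 37 calls. Uncharacterised loci were not named.

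Replicate numbers from the titles were checked at 300. Deviations from the group means of arrays with the same number correlated at 0.46, 0.43 and 0.12 over genes, above the 0.1 required, so the numbers were taken to pair the arrays and a replicate block was fitted (92 calls). At 640 the correlations were 0.03, 0.46 and 0.36, below that bar for replicate 1, and across osmolality the numbers did not match for replicates 1 and 3. The block over all 12 arrays therefore groups arrays that may not belong together. The labels do not say what a number shares.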

Additional observations from a re-analysis of the deposited data

Results flagged for a closer look

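The change from 24 to 48 h at 300 mOsm/kg differed from that at 640 mOsm/kg, by the test of the difference itself, for 4 genes. The change was lower at 300 for Mx1 (difference of log2 changes -3.29), Cxcl10 (-2.59), Ifit3 (-2.38) and Oas1a (-1.66), with limma's adjusted p of 0.00995, 0.0333, 0.0101 and 0.0354. For each of them the 3 arrays of 48 h lay below all 3 of 24 h at 300 and above all 3 at 640. At 300 this held in that direction for 4.85% of all genes, and the share at 640 was not counted. The genes were picked from these same values, so the separation is no separate support. Over the 12 fits that left out 1 array, Mx1 and Ifit3 were called in 11, Cxcl10 in 5 and Oas1a in 3.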

How the results depend on the processing

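The main limit is scale: on the deposited values, without centring, limma called 0 genes at 300, 0 at 640 and 0 differences (3369, 4077 and 64 at an unadjusted p under 0.05), and the median change of all genes at 300 was -0.38. The 37 calls at 300 became 1907 with array weights, 92 with the replicate block, 405 with the replicate block in the 6 arrays alone and 219 without both arrays of low median at 24 h, and ranged from 7 to 38 when each array at 300 was left out. The weight of 24 h replicate 3 of 300 was 4.18, against 0.40 and 0.48 for replicates 1 and 2. The 1907 calls thus rest largely on 1 array at 24 h. Leaving out that pair of arrays, the 6-array block and quantile normalization at 640 were chosen after seeing the data. Quantile normalization gave 49, cyclic loess 43, all probe sets as the basis of centring 30, no dim genes 53, trend and robust settings 49, averaged probe sets 35 and the 6 arrays alone 32. The 4 differences became 2 with centring on all probe sets, with quantile normalization and with cyclic loess, 10 with array weights, 6 with the replicate block (which joins replicates 1 and 3 across osmolality, whose deviations correlated at -0.13 and -0.21 at 24 h and at -0.23 and -0.22 at 48 h; no crossed pairing was fitted), 0 without both arrays of low median, and 0 to 4 when each of the 12 arrays was left out. The 20 calls at 640 became 35 with the replicate block and 21 with quantile normalization. The difference of array medians was -0.41 over all probe sets. The cause of these shifts was not tested.

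Some changes at 300 that did not pass the test turned sign. On the deposited values they were those of Aldoa (-0.050), Aqp2 (-0.22), Bax (-0.0045), Bmal1 (-0.056), Canx (-0.062), Cd3g (-0.042), Crb3 (-0.062), Eng (-0.090), Fgf2 (-0.030), Foxi1 (-0.10), Lhx1 (-0.016), Nfat5 (-0.33), Pgam1 (-0.064), Plk3 (-0.14), Plvap (-0.11), Sdhb (-0.0021), Sgk1 (-0.31), Slc5a3 (-0.059) and Upk1a (-0.27). Quantile normalization gave -0.0060 for Aldoa, -0.044 for Pgam1 and -0.14 for Sgk1, and cyclic loess -0.13 for Sgk1. Scnn1a was 0.060 with array weights. When each array was left out, Nfat5 ranged from -0.048 to 0.24, Scnn1a from -0.27 to 0.17, Slc5a3 from -0.025 to 0.65 and Upk1a from -0.051 to 0.30. No called gene turned sign under these alternatives.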

Other observations

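Arrays resembled each other across osmolality by other numbers than their own. Deviations from the group means, over the 14506 genes, correlated at 0.83 between replicate 1 at 300 and replicate 3 at 640 at 24 h, and at 0.78 at 48 h. Replicate 2 of both osmolalities correlated at 0.84 and 0.80, and replicate 3 at 300 with replicate 1 at 640 at 0.58 and 0.63. Deviations of replicate 1 at both osmolalities correlated at -0.13 and -0.23. These correlations are over genes, which are not independent replicates, and the deviations of the 3 arrays of a group sum to 0.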
